A study of Homo sapiens with 6 samples.

Results

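YAP and TAZ are the transcriptional coactivators at the end of the Hippo pathway, encoded by Yap1 and Wwtr1. When the pathway's kinases are inactive they enter the nucleus, where they bind DNA through TEAD factors such as TEAD1. Ccn1 (also called Cyr61), Ccn2 (also called Ctgf) and Ankrd1 are the target genes most often used to read out this activity, and YAP and TAZ are known for driving growth in gastric and other epithelial tumours. These 6 genes were chosen by their identifiers, and all 6 of 6 were found among the 34866 gene identifiers (IDs) of the count table. The symbols come from the list that defined the genes, in mouse spelling, because the table itself carries only mouse Ensembl IDs.

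The samples carry the label MKN45, a line of human gastric adenocarcinoma cells, described in the design text as negative for the gland mucin MUC6. In 3 samples the cells were given an adenovirus with a control short hairpin RNA (shRNA), and in 3 an adenovirus with an shRNA against GOLPH3, a Golgi protein that binds phosphatidylinositol 4-phosphate. The comparison asks how expression differs between cells treated with the GOLPH3 hairpin and cells treated with the control hairpin. The titles number the samples without saying whether they were separate cultures or carried different hairpins. The p-values therefore judge the difference between the groups only against a spread estimated from these samples, and that spread may be technical. The labels name a human line and the IDs are of mouse genes, and human reads assigned to mouse gene models cannot be told apart here from reads of mouse cells. A low count is therefore not read as absence of a gene from the cells, and counts of different genes are not compared as levels. The control libraries held 6287037 to 7355140 estimated counts and the GOLPH3 shRNA libraries 4977645 to 5676169. The levels of GOLPH3 and of epithelial marker genes were not analysed here, because only the 6 genes carry names.

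Ccn1 rose with GOLPH3 shRNA, while Yap1, Wwtr1 and Tead1 did not pass the test, and Ccn2 and Ankrd1 had too few reads to be tested. Of the 4 tested genes, 1 rose and 0 fell (quasi-likelihood test of edgeR, with a call at a Benjamini-Hochberg adjusted p below 0.05 over all tested IDs). In the same fit 33.9% of all 11400 tested IDs were called, 16.1% higher and 17.8% lower, so 1 call in 4 genes lies near that background. The median log2 fold change of the 4 tested genes was 0.053, beside 0.0019 over all tested IDs.

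**Figure D1:**
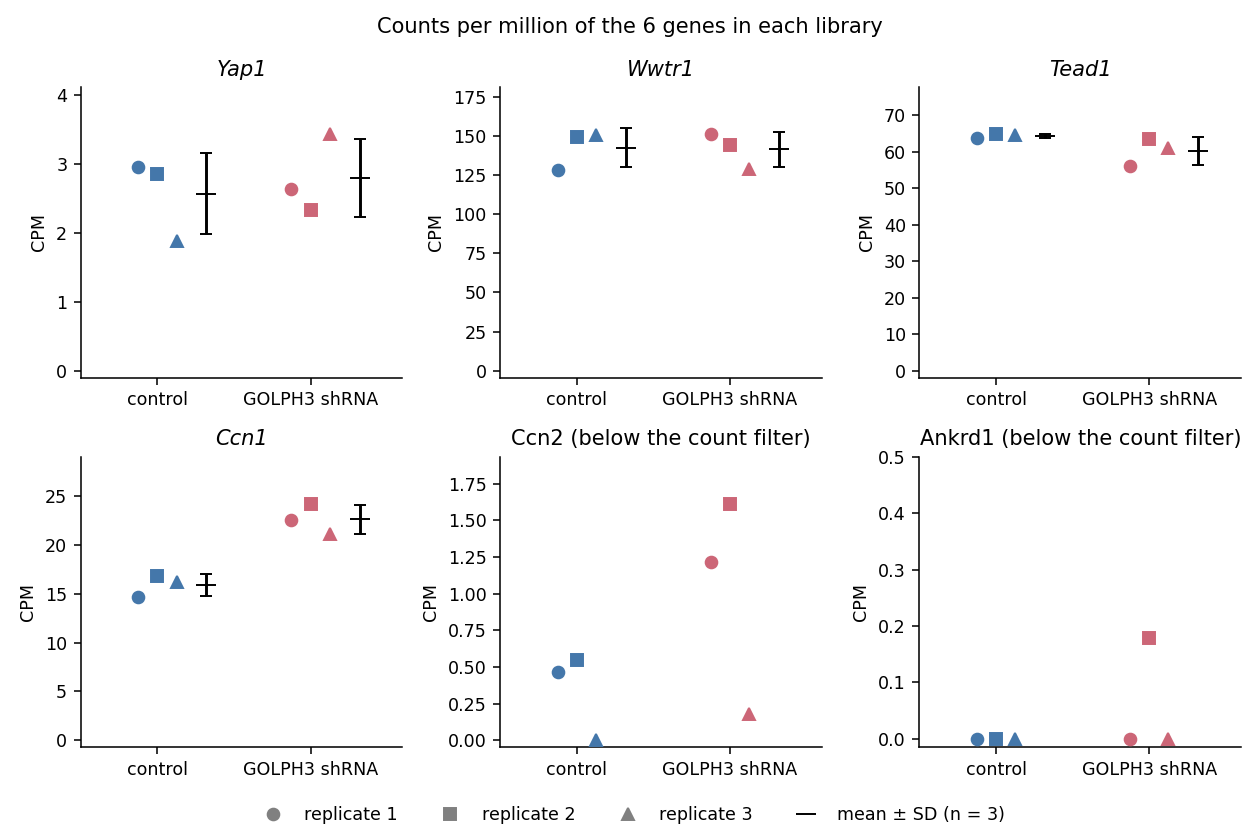
Levels of each of the 6 genes in counts scaled to library size (CPM), on linear axes, with 1 point per library, shapes for the replicate number and bars for the mean ± SD of 3 libraries in the 4 tested genes. The GOLPH3 shRNA points of Ccn1 (21.1 to 24.2 CPM) all lie above the control points (14.6 to 16.8 CPM), and the points of Yap1, Wwtr1 and Ccn2 overlap between the groups.

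Yap1 (ENSMUSG00000053110.13) encodes the coactivator YAP. Its estimated counts were 19.1, 21.1 and 12.0 in control replicates 1, 2 and 3, and 13.1, 13.0 and 19.0 in the GOLPH3 shRNA replicates. Scaled to CPM, which divides by the normalised library size, these were 2.96, 2.86 and 1.89 in the controls and 2.64, 2.33 and 3.43 with GOLPH3 shRNA. The groups overlapped, with the lowest value in a control and the highest in a GOLPH3 shRNA library. Mean levels were 2.57 ± 0.590 and 2.80 ± 0.571 CPM (SD, n = 3). The log2 fold change was 0.12 (SE 0.41, edgeR adjusted p = 0.848), with a 95% interval from 0.596-fold to 1.98-fold. Counting error alone would give a coefficient of variation of 24.0% at the control counts, where 23.0% was observed. Without control replicate 3 or GOLPH3 shRNA replicate 3 the sign turned, to -0.061 and -0.062. A change of Yap1 within that interval is neither shown nor excluded at these counts.

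Wwtr1 (ENSMUSG00000027803.14) encodes TAZ, the paralog of YAP. Its counts were 822, 1094 and 956 in the controls and 745, 806 and 714 with GOLPH3 shRNA. These came to 128.0, 149.2 and 150.7 CPM in the controls and to 151.0, 144.3 and 129.0 CPM with GOLPH3 shRNA. Each group held 1 lower library, control replicate 1 and GOLPH3 shRNA replicate 3, and the groups overlapped over nearly their whole range. The log2 fold change was -0.013 (SE 0.086, edgeR adjusted p = 0.926), with a 95% interval from -0.20 to 0.17. Wwtr1 is the best counted of the 6 genes, and its interval is the narrowest of the 4 tested. Its sign turned without control replicate 2 (0.016), control replicate 3 (0.022) or GOLPH3 shRNA replicate 3 (0.043).

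Tead1 (ENSMUSG00000055320.17) encodes a DNA-binding partner of YAP and TAZ. Its estimated counts of 409.0, 474.5 and 409.8 in the controls and 276.7, 354.9 and 338.2 with GOLPH3 shRNA were fractional in every library, as were those of Yap1 in 4 of 6 (12.0003 in control replicate 3). A value was counted as whole only where it equalled its rounded value exactly. No source used here says why estimates were fractional, and 54.9% of the tested IDs had whole counts in all libraries. Tead1 stood at 63.7, 64.8 and 64.6 CPM in the controls and at 56.2, 63.6 and 61.1 CPM with GOLPH3 shRNA. All GOLPH3 shRNA values lay below all control values, but replicate 2 did so by a narrow margin, and 24.2% of all tested IDs had groups that did not overlap in this direction (46.3% in either). The control libraries lay closer together (coefficient of variation 0.924%) than the 4.8% that counting error alone would give. The log2 fold change was -0.094 (SE 0.094, edgeR adjusted p = 0.472), with a 95% interval from -0.29 to 0.11, so Tead1 did not pass the test.

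**Figure D2:**
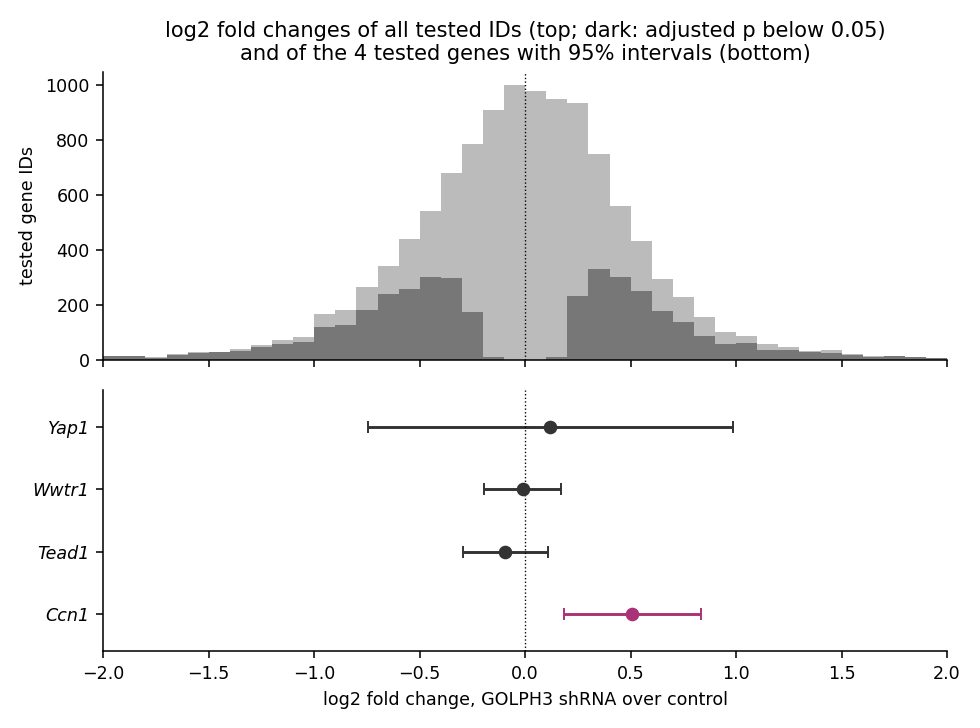
Top: histogram of log2 fold changes (GOLPH3 shRNA over control) of the 11400 tested IDs, of which 72 lie outside the plotted range of -2 to 2, with called IDs in dark grey. Bottom: the 4 tested genes with their 95% intervals; the interval of Ccn1 (0.18 to 0.83) excludes 0, and that of Yap1 is the widest of the 4.

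The 3 target genes are tied to TEAD by a short DNA motif, GGAATG, which was searched on both strands in the 250 bases before each gene's start in the human RefSeq promoter table (GRCh38.p14), matched by symbol. Of the 6 genes, 4 had an entry there, CCN2, ANKRD1, YAP1 and WWTR1; CCN1 and TEAD1 had none. The promoters of CCN2 (chr6:131951373-131951622, minus strand) and ANKRD1 (chr10:90921088-90921337, minus strand) are shown because they are the pair of target genes with an entry. They run 5′ to 3′ along the gene's strand, with GGAATG matches in capitals.
CCN2: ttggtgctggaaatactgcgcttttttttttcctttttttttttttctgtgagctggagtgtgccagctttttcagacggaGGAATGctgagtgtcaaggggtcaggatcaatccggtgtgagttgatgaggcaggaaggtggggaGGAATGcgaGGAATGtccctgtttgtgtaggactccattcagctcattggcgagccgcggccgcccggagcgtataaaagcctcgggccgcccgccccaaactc
ANKRD1: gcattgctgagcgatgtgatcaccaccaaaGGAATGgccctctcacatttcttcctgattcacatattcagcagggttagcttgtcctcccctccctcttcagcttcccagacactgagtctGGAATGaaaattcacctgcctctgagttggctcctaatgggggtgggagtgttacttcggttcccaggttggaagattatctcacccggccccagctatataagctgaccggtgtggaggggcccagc
CCN2 held 3 matches, which begin 169, 104 and 95 bases before the start, and ANKRD1 held 2, which begin 220 and 128 bases before it. YAP1 held 1 match, at 162 bases, and the 2 WWTR1 promoters in the table held 0. Of 35116 promoters of this length, 11.9% had at least 1 match, 0.94% at least 2 and 0.0826% at least 3. The longer form GGAATGT, which contains the shorter motif, stood in the CCN2 and YAP1 promoters and in 2.96% of all. The pattern TGANTCA was searched for AP-1, a factor that often binds beside TEAD, with any base allowed at N. It stood in 6.57% of all promoters and in ANKRD1, there as TGATTCA, which is not the AP-1 consensus TGA(C/G)TCA. The CArG box of serum response factor stood in none of the 5 promoters and in 1.16% of all. A match is a stretch of letters and does not show binding, and the mouse promoters were not analysed here.

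Ccn1 (ENSMUSG00000028195.4) encodes a secreted matricellular protein that signals through integrins and responds quickly to YAP, TAZ and serum. Its counts were 94, 123 and 103 in control replicates 1, 2 and 3 and 111, 135 and 117 with GOLPH3 shRNA, all whole numbers. These raw counts overlap, since the GOLPH3 shRNA libraries were smaller. Scaled to library size, Ccn1 stood at 14.6, 16.8 and 16.2 CPM in the controls and at 22.5, 24.2 and 21.1 with GOLPH3 shRNA. Every GOLPH3 shRNA library then lay above every control library, as for 22.1% of all tested IDs. Mean levels were 15.9 ± 1.11 and 22.6 ± 1.52 CPM (SD, n = 3), a rise of 1.42-fold. The coefficients of variation, 7.0% in the controls and 6.7% with GOLPH3 shRNA, were below what counting error alone would give (9.7% and 9.1%). These SDs may therefore understate the spread between libraries. The log2 fold change was 0.51 (SE 0.15, 95% interval 0.18 to 0.83, edgeR adjusted p = 0.0175). The rise was close to the median of the 1840 IDs called higher, 1.43-fold, and 25.6% of all tested IDs had a smaller p.

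The call of Ccn1 was lost when either of 2 libraries was left out and held without each of the other 4. Without control replicate 1, its lowest value, the log2 fold change was 0.45 and the call was lost (edgeR adjusted p = 0.0661). Without GOLPH3 shRNA replicate 2, its highest, it was 0.45 as well (edgeR adjusted p = 0.0584). In the other 4 fits the edgeR adjusted p ran from 0.025 (without GOLPH3 shRNA replicate 3) to 0.0476 (without GOLPH3 shRNA replicate 1). The direction was the same in each of the 15 alternatives run, with log2 fold changes from 0.45 to 0.55. When all libraries were thinned to the smallest total, which removes the difference in depth, the log2 fold change was 0.54 (edgeR adjusted p = 0.0173).

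**Figure D3:**
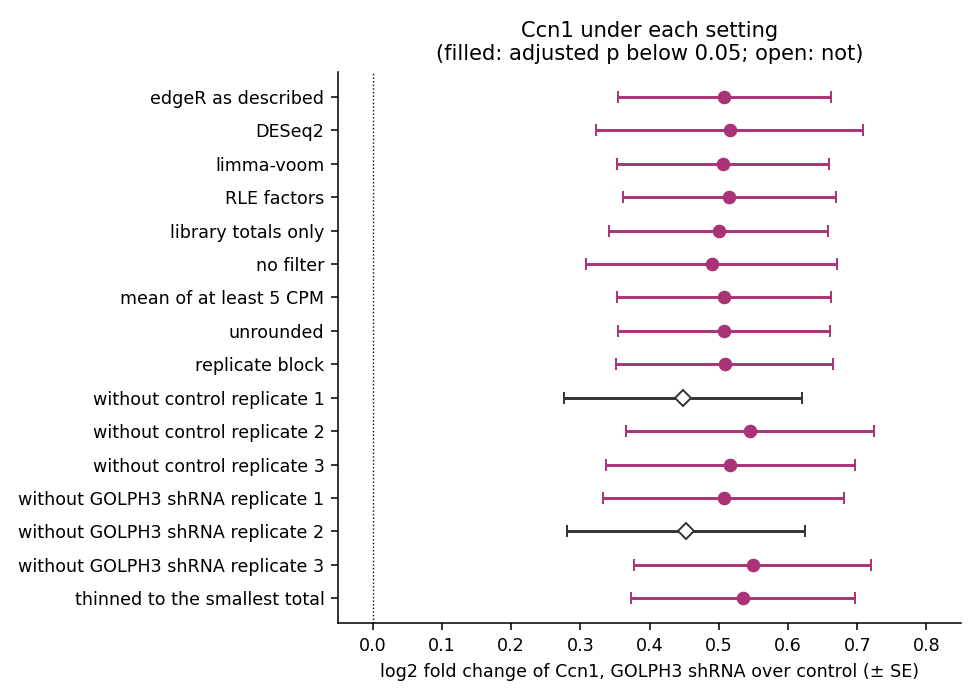
The log2 fold change of Ccn1 with its SE under the test as described and each of 15 alternatives, filled where the adjusted p was below 0.05. All points lie between 0.45 and 0.55, and the 2 open points are the fits without control replicate 1 and without GOLPH3 shRNA replicate 2.

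Ccn2 (ENSMUSG00000019997.11) encodes connective tissue growth factor, a matricellular protein of the same family. It had 3, 4 and 0 counts in the controls and 6, 9 and 1 with GOLPH3 shRNA, below the filter on low counts. Replicate 3 was the lowest library of each group, and the groups overlapped. The summed counts were 7 in the controls (95% exact Poisson interval 2.81 to 14.4) and 16 with GOLPH3 shRNA (9.1 to 26.0). Relative to library size, the sum was 2.86 times as high with GOLPH3 shRNA (95% interval 1.11 to 8.23). These intervals cover counting error only, and the libraries of a group spread more widely than that. With no filter, edgeR gave a log2 fold change of 1.47 (SE 1.04) and an adjusted p of 0.362. A difference in Ccn2 is neither shown nor excluded at these counts.

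Ankrd1 (ENSMUSG00000024803.8) encodes a nuclear and sarcomeric ankyrin repeat protein. It had 1 count in all 6 libraries together, in GOLPH3 shRNA replicate 2. A count of 0 allows a level of up to 0.409 to 0.473 CPM in a control library and 0.542 to 0.608 CPM in the other GOLPH3 shRNA libraries, taken as 3 counts. Both groups were under this limit, so no fold is given. The target genes thus gave 1 tested result, that of Ccn1.

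Differences between genes within a library depend little on how libraries are scaled, and 8 pairs were compared by an exact permutation test (two-sided), for which the smallest p with 3 against 3 is 0.1, so no pair could pass 0.05. Only Yap1 less Wwtr1, Ccn1 less Ccn2 and Ccn2 less Ankrd1 had been planned, and the other 5 pairs were added after the values of the genes were seen. Ccn1 less Wwtr1, in log2 CPM, was -3.10, -3.13 and -3.19 in the controls and -2.73, -2.56 and -2.59 with GOLPH3 shRNA. The difference between the groups was 0.51, and the groups did not overlap (exact permutation p = 0.1, adjusted p = 0.4). Ccn1 less Tead1 was -2.10, -1.93 and -1.97 in the controls and -1.31, -1.38 and -1.52 with GOLPH3 shRNA, a difference of 0.60 (exact permutation p = 0.1, adjusted p = 0.4). With Wwtr1 and Tead1 nearly level, both differences largely restate the log2 fold change of Ccn1 itself (0.51) and are given as a description.

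**Figure D4:**
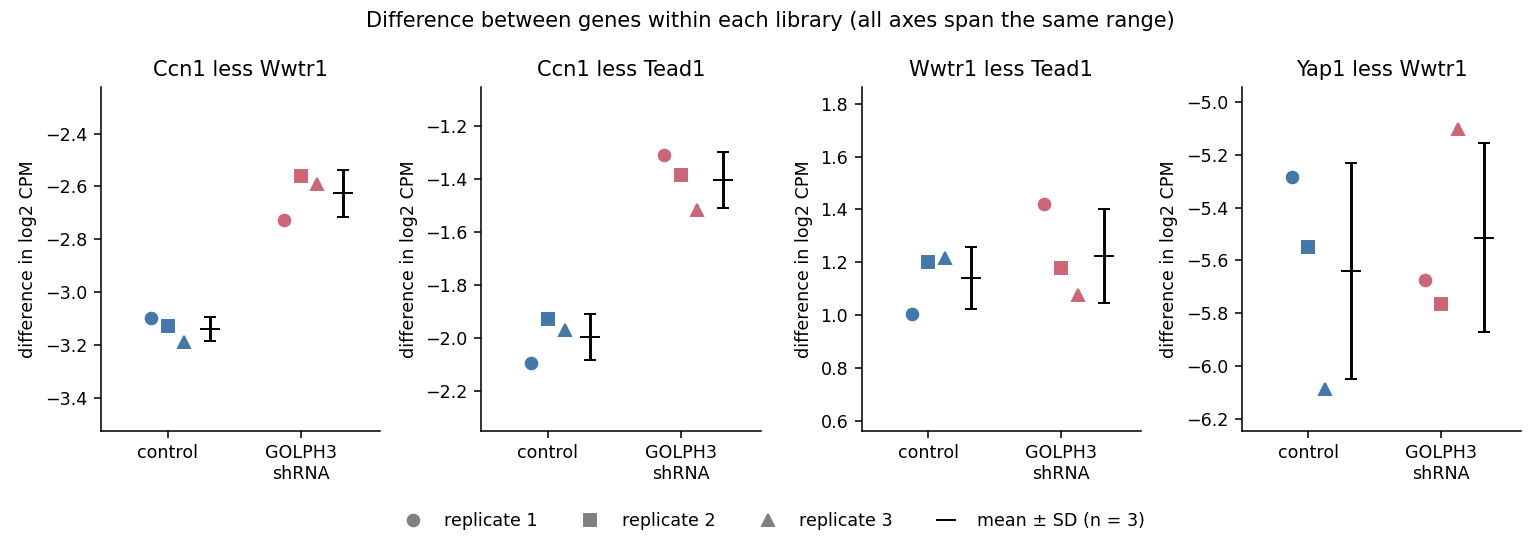
Difference in log2 CPM between the genes of 4 pairs in each library, on axes that span the same range, with the mean ± SD of 3 libraries. Ccn1 less Wwtr1 and Ccn1 less Tead1, which largely restate Ccn1, separate the groups, and Wwtr1 less Tead1 and Yap1 less Wwtr1 do not. Of the pairs shown only Yap1 less Wwtr1 had been planned, and the planned pairs with Ccn2 are not shown.

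The coactivator paralogs did not separate the groups. Yap1 less Wwtr1 was -5.29, -5.55 and -6.09 in the controls and -5.67, -5.77 and -5.10 with GOLPH3 shRNA, a difference of 0.13 (exact permutation p = 0.8, adjusted p = 0.8). Wwtr1 less Tead1 differed by 0.085 between the groups (exact permutation p = 0.6, adjusted p = 0.686), Yap1 less Tead1 by 0.21 (exact permutation p = 0.4, adjusted p = 0.64) and Ccn1 less Yap1 by 0.39 (exact permutation p = 0.2, adjusted p = 0.533). Ccn1 less Ccn2 differed by -0.41 (exact permutation p = 0.5, adjusted p = 0.667), and this value depends on the prior count of 2 that is added before logs are taken. It was -0.94 with a prior count of 0.5 and -0.10 with 5. Ccn2 less Ankrd1 differed by 0.70 (exact permutation p = 0.4, adjusted p = 0.64). It was 0.89 with a prior count of 0.5 and 0.50 with 5, a narrower range. Since Ankrd1 was at 0 in 5 of 6 libraries, this pair largely restates Ccn2.

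Among 9535 tested IDs with a mean of at least 5 CPM, the one whose log2 CPM followed Ccn1 most closely over the 6 libraries was ENSMUSG00000029103.16 (Pearson r = 0.999). It rose from 80.8 ± 9.05 to 133.8 ± 11.3 CPM (SD, n = 3), and its log2 fold change was 0.73 (SE 0.097, edgeR adjusted p = 3.1e-05). An r of at least 0.9 with Ccn1 was reached by 959 IDs, and the points share the difference between the groups. For Ccn2 the closest was ENSMUSG00000085625.1 (r = 0.995), at 9.13 ± 1.80 CPM in the controls and 11.4 ± 2.56 with GOLPH3 shRNA, with a log2 fold change of 0.32 that did not pass the test (edgeR adjusted p = 0.329). At 0 to 9 counts per library for Ccn2, that likeness is weakly grounded. These IDs carry no symbol here.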

How the data were processed

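A single table with the estimated counts of each gene ID in the 6 libraries was deposited by the authors. Per the submitters' processing notes the genome build was mm10. The aligner, quantifier, annotation and filters (not given in the sources used here) could change which reads reach a gene. Per the labels' protocols, libraries were made with a stranded messenger RNA kit. Estimated counts were rounded. The filterByExpr function of edgeR kept 11400 of 34866 IDs (4 of the 6 genes), and the groups were compared in edgeR 4.0.16 (R 4.3.3), with TMM factors, the quasi-likelihood F test, Benjamini-Hochberg adjustment over all tested IDs and a call below 0.05. SEs were log2 fold changes over the square root of F. CPM use the same effective library sizes. The alternatives were DESeq2 1.42.0, limma-voom (limma 3.58.1), other scalings and filters, unrounded counts, a fold minimum, the replicate block, each library left out and thinned libraries. Simulated data were used to test the edgeR step. Libraries of 1 group differed by more than sampling noise (chi-square per degree of freedom 3.29 to 6.52), and each was treated as 1 replicate. This check cannot tell separate cultures from separate libraries of 1 culture. The genes and lists were chosen with earlier results of these data known. The thinning and 5 of the 8 pairs were added after the data were examined. Named are the 6 genes and, for Ccn1 and Ccn2, the ID with the most similar pattern. A list of other Hippo pathway genes, the cell type markers and GOLPH3 were not analysed here, since 0 of the tested IDs matched the human gene name tables.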

Additional observations from a re-analysis of the deposited data

How the results depend on the processing

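The number of called IDs lay between 3069 and 4144 under every alternative but the fold minimum, where it was 3870 in the test as described. A minimum of 1.5-fold left 1790 IDs, 749 higher and 1041 lower, and 0 of the 6 genes, by construction. Leaving out each library gave 3069 to 3594 called IDs, 1425 to 1665 higher and 1644 to 1929 lower, and 0 to 1 of the genes called, all of them higher. For Ccn1 these fits gave log2 fold changes of 0.45 to 0.55. They gave -0.062 to 0.24 for Yap1 and -0.089 to 0.043 for Wwtr1, which both turned sign, and -0.14 to -0.051 for Tead1; none of these 3 genes was called in any alternative. They gave -0.096 to 0.30 for Yap1 less Wwtr1, -0.96 to 0.051 for Ccn1 less Ccn2 and -0.013 to 0.16 for Wwtr1 less Tead1. Without turning sign, Yap1 less Tead1 ran from 0.028 to 0.36, Ccn2 less Ankrd1 from 0.25 to 1.19 and Ccn1 less Yap1 from 0.23 to 0.58. The cause of the turns was not tested. Yap1 could not be tested at a mean of at least 5 CPM. With the replicate number as a block, 3887 IDs were called and the log2 fold change of Ccn1 was 0.51 (edgeR adjusted p = 0.0233); the block changed no call of the 6 genes. Samples of numbers 1, 2 and 3 deviated from their group means with correlations of 0.032, 0.090 and 0.044 between the groups. All were positive and below the set minimum of 0.1. Values this small cannot tell whether a number marks a shared culture or day. Every sample correlated best with its own number except control replicate 1 (0.037 with GOLPH3 shRNA replicate 3). Under each scaling the median log2 fold change of all IDs stayed within 0.1 of its value. The counts limit what can be said of Yap1, Ccn2 and Ankrd1.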
